A study of Mus musculus with 9 samples.

Results

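The genes described are 10 components of the circadian clock: Per1, Per2, Per3, Cry1, Cry2, Arntl, Dbp, Tef, Nr1d1 and Nr1d2. They were chosen by name, as core clock genes and output genes used to read the phase of the clock, with earlier results of these data known, and each has 1 row among the 18275 genes of the deposited table. All 10 passed the filter on low values (a mean of at least 10) and are among the 16196 genes tested. Hippocampal RNA came from male mice 11 to 15 weeks old, 4 Nestin;BrafKE/+ and 5 Braf+/+ littermates, with 1 library per mouse and the strain given as C57BL/6N. Nestin;BrafKE/+ mice carry 1 Braf allele with the K499E change, knocked in at the Braf locus and switched on by Nestin-Cre in neural stem cells, so that neurons, astrocytes and oligodendrocytes carry it together and no single cell type can be singled out. The labels give no treatment or further allele for Braf+/+ mice, and do not say whether they carried Cre. Mice were kept on a 12-hour light and 12-hour dark cycle, and the hour at which each hippocampus was taken is not given in the sources used here. The names of the libraries fall into 3 series, and no label says whether these are technical batches or groups of animals. Series A holds mutant replicate 1 beside control replicates 1, 2 and 3. Series B holds mutant replicates 2 and 3 beside control replicate 4, and series C mutant replicate 4 beside control replicate 5. Series A joins 2 name prefixes, 1 shared by control replicates 1 and 2 and the other by mutant replicate 1 and control replicate 3. The alternative fit with 4 name prefixes keeps these apart.

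The clock of nearly every cell is a transcriptional loop. BMAL1, the product of Arntl, pairs with CLOCK or NPAS2 and activates genes through E-boxes, among them Per and Cry, whose proteins return to the nucleus and repress that pair, and Nr1d1 and Nr1d2, whose proteins (REV-ERB alpha and beta) repress Arntl. DBP, TEF and HLF carry the rhythm to output genes through D-boxes. In a mouse brain kept in light and dark, Dbp, Nr1d1 and the Per genes rise and fall in phases nearly opposite to Arntl. Mice killed at different hours can therefore differ in these genes in opposite directions.

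Values are normalised counts, scaled and adjusted for batches by the authors, and library totals lay between 19551300 and 20091500 of them. They are not reads, the depth behind them is unknown, and every error given is the spread from library to library. In whole tissue, fewer cells of a type and less RNA per cell cannot be told apart. Markers of hippocampal neurons were present in every library, with summed values of 35162 to 39323 in Nestin;BrafKE/+ and 35455 to 38757 in Braf+/+, and no marker of any list was at 0. Summed values of the 6 choroid plexus markers ran from 1372 to 24210 in Nestin;BrafKE/+ and from 4430 to 391030 in Braf+/+, so that the amount of this neighbouring tissue differed from library to library. Mean log2 levels of astrocyte and oligodendrocyte markers were higher in all 4 Nestin;BrafKE/+ libraries than in all 5 Braf+/+ libraries. Of 8 astrocyte markers 6 were higher on average, and of 6 oligodendrocyte markers 6 were. The summed astrocyte values overlapped, at 110920 to 124780 in Nestin;BrafKE/+ and 104160 to 117890 in Braf+/+. Those of oligodendrocytes did not, at 113490 to 122470 and 82893 to 99301.

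Per kilobase of exon, Tef was the most abundant of the 10 in Braf+/+ hippocampus and Arntl the least. The order of the mean normalised counts per kilobase (SD, n = 5) was Tef at 851 ± 33.5, Nr1d1 at 552 ± 22.0, Dbp at 386 ± 41.6, Cry2 at 283 ± 9.91 and Nr1d2 at 259 ± 23.9. Below these came Per1 at 152 ± 9.15, Per2 at 120 ± 4.95, Per3 at 81.7 ± 1.78, Cry1 at 59.7 ± 1.76 and Arntl at 41.4 ± 1.86. Of neighbours in this order, Cry2 and Nr1d2 overlapped over the 5 libraries and the others did not. In Nestin;BrafKE/+ the level of Per2 per kilobase was 154 ± 15.7 (SD, n = 4), beside 151 ± 7.52 for Per1. These levels use the summed exons of each gene in Gencode release 39, whose lengths need not be those the authors used.

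The promoters of 9 of the 10 genes, all but Per2, were found among RefSeq promoter sequences of the build GRCm38.p6, in 12 windows of 250 bases before a start site. These were searched on both strands for the E-box CACGTG, the D-box TTANGTAA, the core of the ROR element TAGGTCA and the CRE TGACGTCA, which are held by 6.02%, 2.06%, 2.23% and 1.55% of the 32851 promoter windows of the same length. The 5 windows with a match are shown because they hold the letters through which clock proteins act on their own loop, with each match in capitals and no 2 matches overlapping. Per1 held an E-box whose first base lies 166 bases before the start (chr11:69098699-69098948, plus strand), and another Per1 window held none of the 4 motifs. Per3 held 2 D-boxes, 205 and 158 bases before the start (chr4:151044666-151044915, minus strand). Cry1 held an E-box 60 bases before the start (chr10:85185055-85185304, minus strand). Each of 2 Tef windows held an E-box, 127 bases before the upstream start (chr15:81802423-81802672, plus strand) and 138 bases before the downstream one (chr15:81811164-81811413, plus strand). The windows of Cry2, Dbp, Arntl, Nr1d1 and Nr1d2 held none of the 4, which says only that these letters are not in them. Sequences run 5′ to 3′ on the strand of the gene.
Per1: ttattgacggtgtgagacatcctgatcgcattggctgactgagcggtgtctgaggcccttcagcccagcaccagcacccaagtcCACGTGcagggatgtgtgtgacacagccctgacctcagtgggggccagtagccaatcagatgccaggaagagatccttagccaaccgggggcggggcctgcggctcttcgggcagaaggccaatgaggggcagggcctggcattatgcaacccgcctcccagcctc
Per3: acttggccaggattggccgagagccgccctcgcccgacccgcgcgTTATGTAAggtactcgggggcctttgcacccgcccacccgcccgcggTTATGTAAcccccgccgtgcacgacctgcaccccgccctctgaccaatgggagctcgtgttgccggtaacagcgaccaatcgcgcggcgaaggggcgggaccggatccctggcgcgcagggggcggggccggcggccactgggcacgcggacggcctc
Cry1: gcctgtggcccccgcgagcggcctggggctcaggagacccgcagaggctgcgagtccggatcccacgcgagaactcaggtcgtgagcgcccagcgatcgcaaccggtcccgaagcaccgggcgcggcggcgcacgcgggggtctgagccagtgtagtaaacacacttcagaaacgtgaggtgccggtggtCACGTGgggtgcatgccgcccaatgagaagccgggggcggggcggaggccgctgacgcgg
Tef, upstream start: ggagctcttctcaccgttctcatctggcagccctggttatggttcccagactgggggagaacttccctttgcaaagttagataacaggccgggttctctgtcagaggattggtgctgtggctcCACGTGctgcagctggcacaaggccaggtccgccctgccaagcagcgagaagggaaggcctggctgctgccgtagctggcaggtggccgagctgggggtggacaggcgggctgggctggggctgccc
Tef, downstream start: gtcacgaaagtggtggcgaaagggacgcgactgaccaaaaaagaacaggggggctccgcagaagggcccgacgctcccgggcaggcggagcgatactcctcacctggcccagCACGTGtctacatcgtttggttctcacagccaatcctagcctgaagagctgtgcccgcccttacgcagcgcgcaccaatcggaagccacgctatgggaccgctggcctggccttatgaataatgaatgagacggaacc

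Genotypes were compared, 4 mutant libraries against 5 controls, to ask whether the clock genes differ and whether genes of opposite phase differ in opposite directions. Per2 was higher in Nestin;BrafKE/+ and was the 1 gene of the 10 past the threshold, an adjusted p under 0.05 in limma. Tef and Nr1d2 were lower on average without passing it, and Dbp, Nr1d1 and Per1 had log2 fold changes of 0.04, 0.01 and -0.01. Of all genes tested 2.88% passed the threshold, 1.52% as higher and 1.36% as lower in the mutants. Of the 10, 3 (30%) had an unadjusted p under 0.05, against 18.5% of all genes tested and was read as no more than that count in 10 genes. The groups did not overlap for 1 gene that was higher and 1 that was lower, Per2 and Tef, where the shares of all genes tested were 7.62% and 8.13%. The median log2 fold change over the 10 was -0.02 and the median of its absolute values 0.10, against 0.00 and 0.12 for all genes tested.

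**Figure D1:**
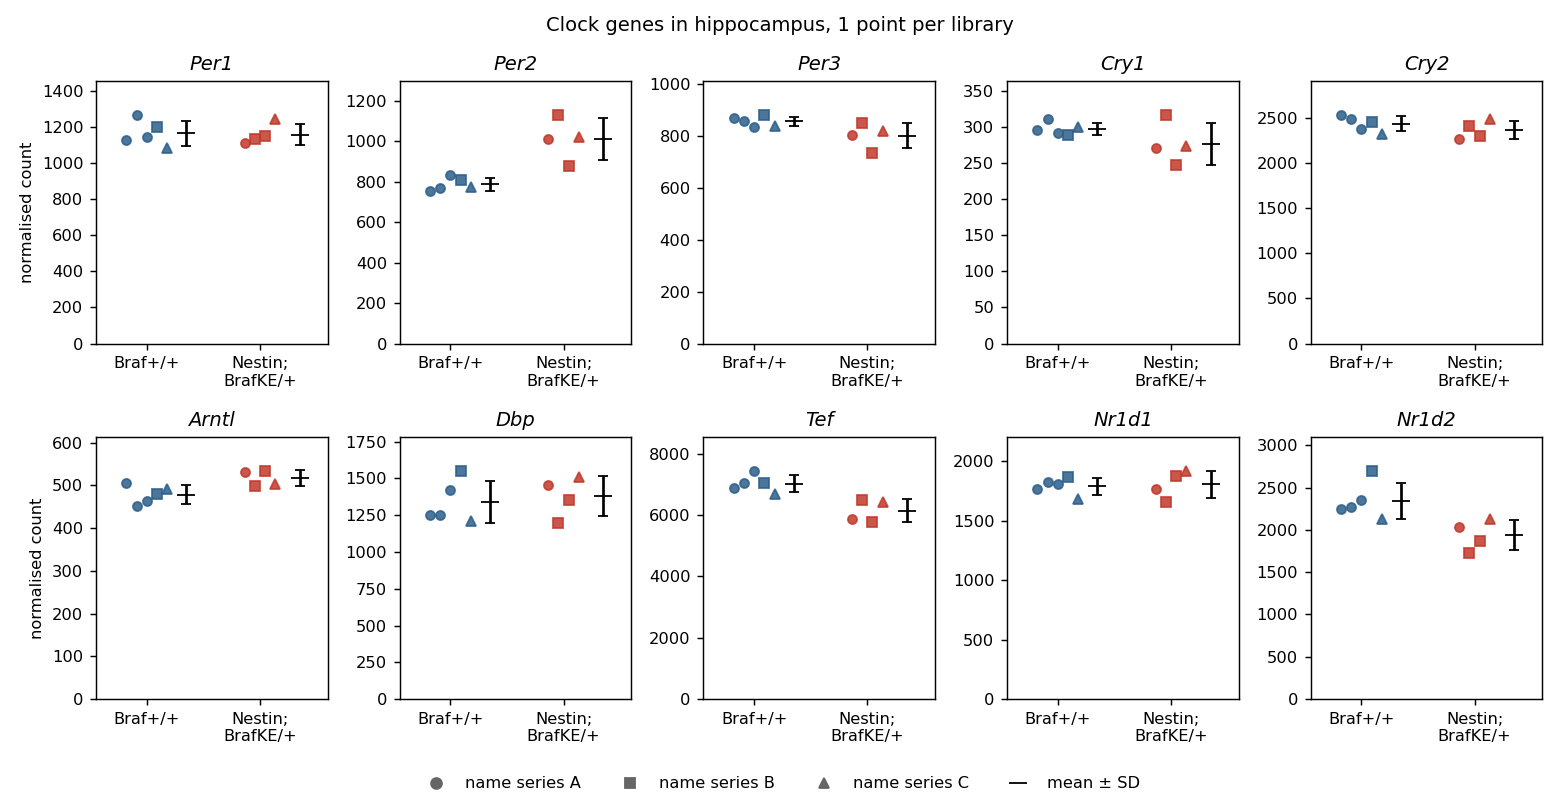
Normalised counts (vertical axes, from 0) of the 10 clock genes, 1 point per library, in Braf+/+ (n = 5, blue) and Nestin;BrafKE/+ (n = 4, red), with the series of library names as the marker and the mean ± SD as bars. Per2 lies higher in all 4 mutant libraries than in all 5 controls and Tef lower, and the groups overlap for the other 8 genes.

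Arntl encodes BMAL1, the activator that the loop cannot do without (ENSMUSG00000055116, named Bmal1 in Gencode release 39, chromosome 7, 112806152 to 112914735, plus strand, GRCm39). Its values were 532, 499, 534 and 503 in Nestin;BrafKE/+ replicates 1 to 4 and 506, 452, 464, 479 and 492 in Braf+/+ replicates 1 to 5. All 4 mutant libraries lay above the control median and 2 lay above all controls, so the groups overlapped. The log2 fold change was 0.11 (SE 0.07, 95% interval -0.05 to 0.27, limma adjusted p = 0.467), with differences of 0.17, 0.11 and 0.03 in the 3 series. The exact permutation p, two-sided, was 0.0476 over all assignments of genotype to the 9 libraries. Over the 24 that stay within series it was 0.0417, the smallest possible there. Exact p-values of the clock genes, here and below, were not adjusted for the number of genes. Over all assignments they were 0.032 for Per3, 0.143 for Cry1, 0.294 for Cry2, 0.643 for Dbp, 0.841 for Nr1d1 and 0.913 for Per1. Within series they were 0.125, 0.292, 0.583, 0.667, 0.75 and 0.917, in the same order. Exact p-values were not computed for all genes tested, so no share of these stands beside them.

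Per2 encodes the period protein whose level paces the repressive limb of the loop (ENSMUSG00000055866, chromosome 1, 91343700 to 91387069, minus strand). Its values were 1012, 1129, 877 and 1024 in Nestin;BrafKE/+ replicates 1 to 4 and 752, 771, 834, 807 and 775 in Braf+/+ replicates 1 to 5. The lowest mutant library, replicate 3, stood above the highest control. The mean rose from 788 ± 32.5 (SD, n = 5) to 1010 ± 103 (SD, n = 4), 1.28-fold, with a log2 fold change of 0.35 (SE 0.08, 95% interval 0.17 to 0.54, limma adjusted p = 0.0497). The rise was of like size in the 3 series, at 0.37 (A), 0.30 (B) and 0.40 (C). The exact permutation p, two-sided, was 0.00794 over all assignments and 0.0417 within series, each the smallest possible. The adjusted p lay at the edge of the threshold, and leaving out mutant replicate 3 kept it under (0.0295), while leaving out any other library did not. It was 0.194, 0.0797 and 0.125 without mutant replicates 1, 2 and 4, and 0.0841, 0.0819, 0.0602, 0.150 and 0.123 without Braf+/+ replicates 1 to 5. In these 9 fits the log2 fold change itself stayed between 0.31 and 0.41.

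Per1, which light and cyclic AMP induce quickly (ENSMUSG00000020893, chromosome 11, 68986035 to 69002300, plus strand), did not follow Per2. Its values were 1112, 1130, 1147 and 1241 in Nestin;BrafKE/+ and 1126, 1264, 1144, 1200 and 1084 in Braf+/+, in the order of the replicates. The lowest and the highest of all 9 were both controls. The log2 fold change was -0.01 (SE 0.07, 95% interval -0.16 to 0.14, limma adjusted p = 0.969), and its sign turned under 6 of the other fits. Mutants were lower by 0.08 within series A and by 0.08 within B, and higher by 0.20 within C. Per3 (ENSMUSG00000028957, chromosome 4, 151081373 to 151129140, minus strand), which can be lost without stopping the clock, had 806, 850, 735 and 819 in Nestin;BrafKE/+ and 868, 859, 837, 881 and 840 in Braf+/+. In 3 of 4 mutant libraries it was below all controls, and replicate 2 lay among them. Its log2 fold change was -0.10 (SE 0.07, 95% interval -0.24 to 0.05, limma adjusted p = 0.478), and the differences of the 3 series were -0.08, -0.16 and -0.04. For Per1, Gm72383 overlaps the gene on the same strand, so some of its reads cannot be assigned with certainty.

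The cryptochromes, the stronger repressors of the BMAL1 pair, did not pass the threshold. Cry1 (ENSMUSG00000020038, chromosome 10, 84967560 to 85021252, minus strand) had values of 270, 316, 247 and 273 in Nestin;BrafKE/+ and 295, 311, 291, 289 and 299 in Braf+/+. Mutant replicate 2 was the highest of the 9 libraries and the other 3 mutants lay below all controls. The log2 fold change of Cry1 was -0.11 (SE 0.10, 95% interval -0.33 to 0.11, limma adjusted p = 0.606). Cry2 (ENSMUSG00000068742, chromosome 2, 92233894 to 92264474, minus strand) was the steadiest of the 10, from 2263 to 2480 in Nestin;BrafKE/+ and from 2315 to 2525 in Braf+/+. Its log2 fold change was -0.04 (SE 0.05, 95% interval -0.16 to 0.08, limma adjusted p = 0.727).

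The nuclear receptors Nr1d1 and Nr1d2 repress Arntl at shared sites, and their levels differed unlike each other. Nr1d1 (ENSMUSG00000020889, chromosome 11, 98658752 to 98666188, minus strand) had 1765, 1661, 1875 and 1920 in Nestin;BrafKE/+ and 1768, 1827, 1806, 1867 and 1679 in Braf+/+. Mutants held both the lowest and the highest value, and the log2 fold change was 0.01 (SE 0.06, 95% interval -0.13 to 0.15, limma adjusted p = 0.949). Gm72779 overlaps the span of Nr1d1 on the same strand and Thra on the other. Whether exons overlap was not examined, so the assignment of reads to Nr1d1 may be less certain. Nr1d2 (ENSMUSG00000021775, chromosome 14, 4230545 to 4266624, plus strand) had 2031, 1732, 1868 and 2127 in Nestin;BrafKE/+ and 2252, 2274, 2356, 2698 and 2123 in Braf+/+. Of the 4 mutant libraries 3 lay below all controls, replicate 4 exceeded Braf+/+ replicate 5 by a few counts, and Braf+/+ replicate 4 stood highest. The log2 fold change was -0.27 (SE 0.09, 95% interval -0.46 to -0.08) and the limma adjusted p 0.132. The series gave differences of -0.18 (A), -0.58 (B) and 0.00 (C), and without Braf+/+ replicate 4, the 1 control of series B, it was -0.10 (adjusted p = 0.540). The exact permutation p, two-sided, was 0.0238 over all assignments and 0.0833 within series.

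Dbp and Tef encode PAR bZIP activators of output genes, and Dbp is among the transcripts of widest daily swing in mouse tissues. Dbp (ENSMUSG00000059824, chromosome 7, 45354512 to 45359627, plus strand) had 1452, 1196, 1355 and 1512 in Nestin;BrafKE/+ and 1253, 1251, 1423, 1551 and 1211 in Braf+/+. Each genotype held values from about the bottom to about the top of the range, and the log2 fold change was 0.04 (SE 0.10, 95% interval -0.18 to 0.26, limma adjusted p = 0.855). The series went apart, with differences of 0.15 (A), -0.28 (B) and 0.32 (C), and the sign turned under 4 of the other fits. Without Braf+/+ replicate 4, the library highest in Dbp, the log2 fold change was 0.22. Sphk2 overlaps Dbp on the opposite strand. Tef (ENSMUSG00000022389, chromosome 15, 81686622 to 81711064, plus strand) had 5861, 6488, 5774 and 6431 in Nestin;BrafKE/+ and 6875, 7063, 7444, 7048 and 6699 in Braf+/+. The highest mutant library was below the lowest control. The mean was 6139 ± 373 (SD, n = 4) against 7026 ± 277 (SD, n = 5), with a log2 fold change of -0.20 (SE 0.06, 95% interval -0.32 to -0.07) whose limma adjusted p was 0.101. The series differed by -0.28 (A), -0.20 (B) and -0.06 (C), and the exact permutation p, two-sided, was 0.00794 over all assignments and 0.0417 within series, each the smallest possible. Of the genes whose promoters are printed above, Per1, Cry1 and Tef with an E-box had log2 fold changes of -0.01, -0.11 and -0.20, and Per3 with D-boxes -0.10.

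**Figure D2:**
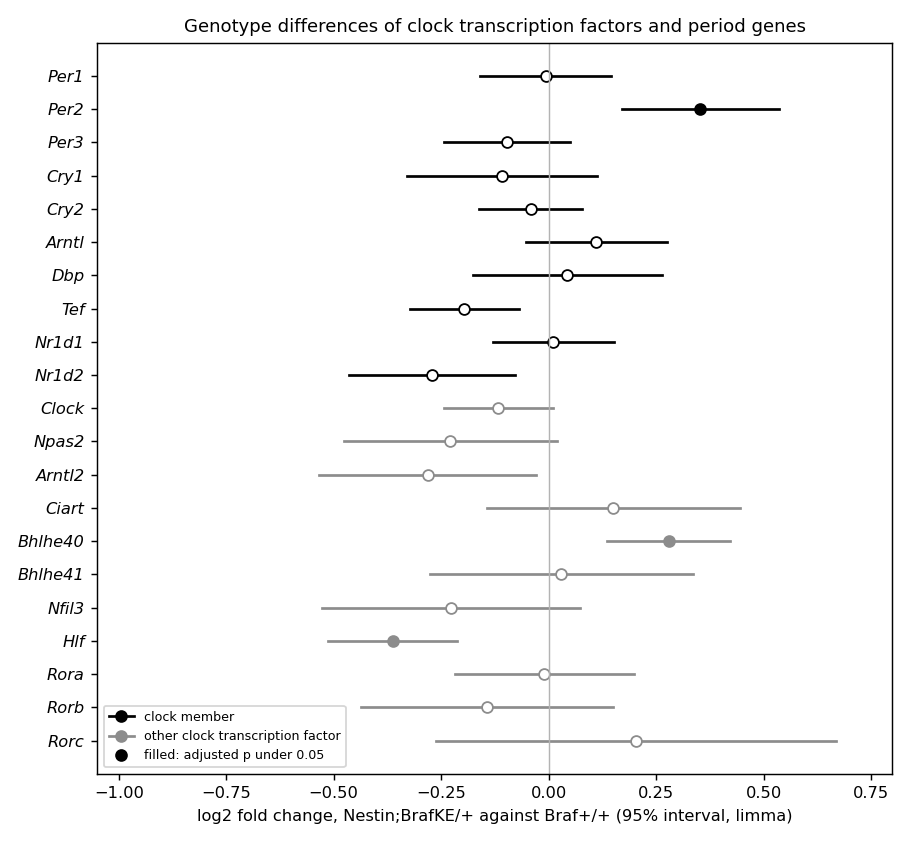
Log2 fold changes (horizontal axis, Nestin;BrafKE/+ against Braf+/+, with 95% limma intervals) of the 10 clock genes in black and of 11 other clock transcription factors in grey, with filled points for an adjusted p under 0.05. Per2 and Bhlhe40 pass the threshold to the right of 0 and Hlf to the left, and the intervals of Dbp, Nr1d1 and Per1 straddle 0.

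Genes of 1 family were also set against each other within each library, a ratio that does not depend on the scaling of the library. The log2 ratio of Per2 to Per1 was -0.14, -0.001, -0.39 and -0.28 in Nestin;BrafKE/+ and -0.58, -0.71, -0.46, -0.57 and -0.48 in Braf+/+. The groups did not overlap, and the mean was higher in Nestin;BrafKE/+ by 0.36. The log2 ratio of Nr1d2 to Nr1d1 was 0.20, 0.06, -0.01 and 0.15 in Nestin;BrafKE/+ and 0.35, 0.32, 0.38, 0.53 and 0.34 in Braf+/+. It was lower in every mutant library than in every control, by 0.28 on average. Both ratios kept their direction in all 3 series. Within series A, B and C the ratio of Per2 to Per1 differed by 0.45, 0.38 and 0.21 and that of Nr1d2 to Nr1d1 by -0.15, -0.50 and -0.19. The ratio of Tef to Dbp was lower by 0.24 and that of Cry1 to Cry2 by 0.07, with overlapping groups for both. The Tef to Dbp ratio differed by -0.43, 0.08 and -0.38 within the series, and without Nestin;BrafKE/+ replicate 2 it was lower by 0.33. These ratios were chosen after the values had been seen, when Per2 and Nr1d2 were known to differ more than Per1 and Nr1d1, and are a description with no test.

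**Figure D3:**
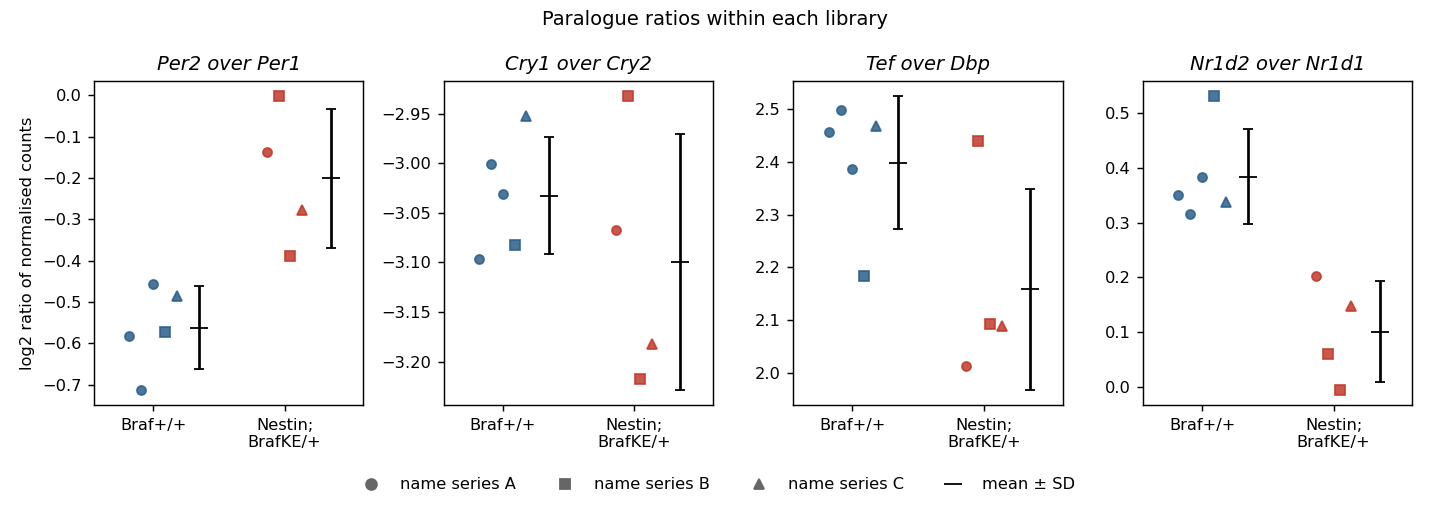
Log2 ratios of normalised counts between clock genes of 1 family (vertical axes, which do not start at 0), 1 point per library, by genotype, with series as the marker and the mean ± SD (n = 5 and 4) as bars. The genotypes do not overlap for Per2 over Per1 or Nr1d2 over Nr1d1 and overlap for the other 2 ratios.

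A later or earlier hour of collection in 1 genotype can move genes of opposite phase in opposite directions. Of the members placed in an arm, Arntl peaks apart from the others. With companions the light-phase arm was Per1, Per2, Per3, Dbp, Tef, Nr1d1, Nr1d2, Ciart, Hlf, Usp2 and Bhlhe41, and the dark-phase arm Arntl, Npas2 and Clock. The members Cry1 and Cry2 were placed in neither arm. The light-phase arm less the dark-phase arm, as mean centred log2 values, was 0.01, 0.04, -0.02 and 0.10 in Nestin;BrafKE/+ and -0.05, -0.07, 0.06, 0.02 and -0.09 in Braf+/+. The genotypes overlapped, with a mean difference of 0.06 that is given as a description and was not tested. Bhlhe40 stood in neither arm, and with it in the light-phase arm, a choice made after the data had been seen, the difference was 0.08. With the member genes alone, and Arntl the only gene of the dark-phase arm, the difference was -0.13, so that its sign turned with the choice of genes. Within the light-phase arm Per2 was higher, Tef, Nr1d2 and Hlf were lower on average, and the intervals of Dbp, Nr1d1 and Per1 held 0. That arm pools genes that peak in the light phase or at dusk, and differences of phase within it were not tested. The 95% interval of Dbp, from -0.18 to 0.26 on the log2 scale, holds changes in either direction. Whether the hour of collection differed between the genotypes was not tested, since no label gives it.

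**Figure D4:**
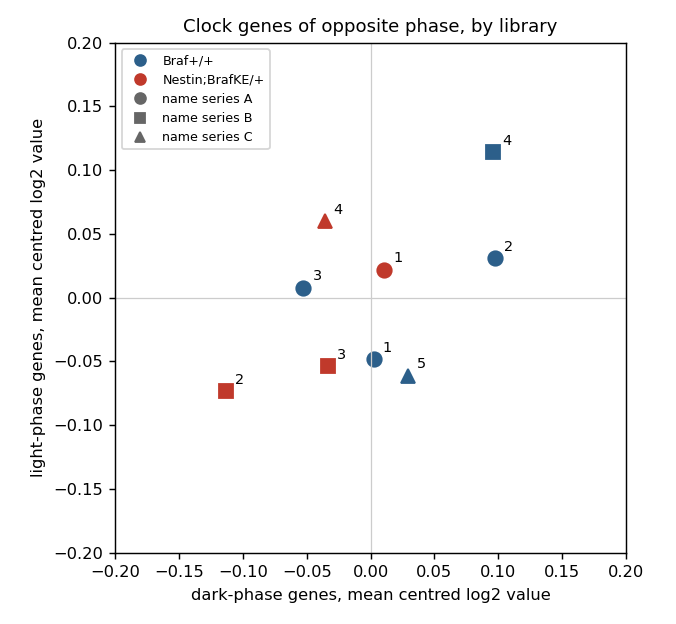
Mean centred log2 value of 11 light-phase clock genes (vertical axis) against that of 3 dark-phase clock genes (horizontal axis), 1 point per library, numbered by replicate. Nestin;BrafKE/+ (red) and Braf+/+ (blue) libraries do not fall into opposite corners, and Braf+/+ replicate 4 is high on both axes.

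Over the 9 libraries Nr1d2, Per2 and Dbp had the widest ranges of the 10 genes. The highest library exceeded the lowest by 1.56-fold for Nr1d2, 1.5-fold for Per2, 1.3-fold for Dbp, 1.29-fold for Tef and 1.28-fold for Cry1, and by 1.12- to 1.2-fold for the other 5. Once genotype and series were fitted, the residual SD on the log2 scale was 0.18 for Dbp, 0.15 for Nr1d2, 0.13 for Per2 and 0.12 for Cry1, and from 0.07 to 0.09 for the rest. Among the 11675 genes with a mean value from 100 to 10000, Dbp stood at the 78.1 percentile of this spread and Nr1d2 at the 70.0, while Cry2 at the 14.7 and Arntl at the 18.1 were among the steadier genes.

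How the members moved together from mouse to mouse was read against Dbp, in 9 relations over the 9 libraries. Nr1d1 followed Dbp most closely, with a Pearson r of 0.74 (permutation p = 0.0258, adjusted 0.232) and a Spearman rho of 0.67 (permutation p = 0.0589, adjusted 0.265). Without Braf+/+ replicate 4 and Nestin;BrafKE/+ replicate 2, the libraries farthest from the median of Dbp, its r was 0.62. Cry1 went the other way, with r of -0.54 (permutation p = 0.128, adjusted 0.555), rho of -0.75 (permutation p = 0.0255, adjusted 0.229) and r of -0.57 without these libraries. Nr1d2 had an r of 0.49 (permutation p = 0.185, adjusted 0.555), which was 0.96 once the genotype means were removed. Without these libraries, but with the genotype means kept, it was -0.19, so that its size depends on both choices. The r with both changes made was not computed. Per2 had an r of 0.15 with Dbp, which was 0.90 without these libraries and 0.02 with the genotype means removed, so that its size too depends on which libraries are kept. The r of the other 5 members with Dbp lay between -0.13 and 0.36, and without these libraries between -0.39 (Per3) and 0.30 (Arntl), with Tef moving from -0.06 to -0.32. None of the 9 relations passed after adjustment. Series hold 4, 3 and 2 libraries, too few for a correlation within any of them. Over all 45 pairs of members 24 correlations were positive and 21 negative, and with the genotype means removed 30 were positive. The pair with the largest absolute r, named for that reason, was Arntl and Tef at -0.90, and -0.78 with the genotype means removed. Among 13221 genes with a mean of at least 50, those most like Dbp over the 9 libraries were Ubqln4 (r of 0.98), Shq1 (0.96) and Cpsf7 (0.96), and those most opposite were Gm17139 (-0.99), Ripor1 (-0.98) and Trim32 (-0.97). These 6 were picked as the extremes of all these genes over 9 libraries, and no p belongs to them.

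**Figure D5:**
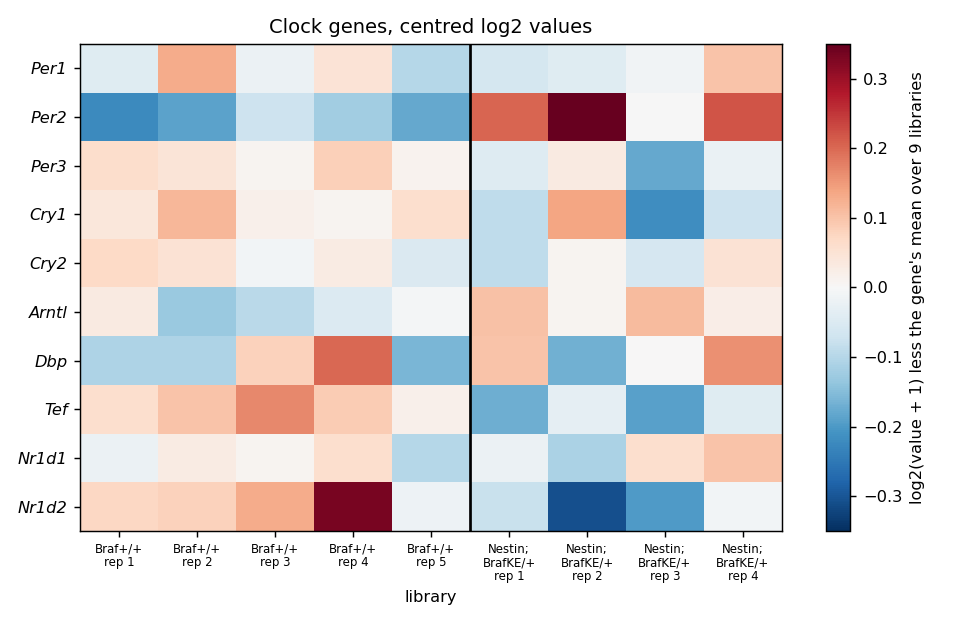
Log2(value + 1) of the 10 clock genes less each gene's mean over the 9 libraries (colour, red for higher and blue for lower), with Braf+/+ libraries left of the line and Nestin;BrafKE/+ right of it. Per2 is higher right of the line and Tef and Nr1d2 mostly lower, while Dbp is high and low on both sides.

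Other genes of the clock were taken from 4 lists of 29 genes, all of them tested, of which 12 were higher and 17 lower in Nestin;BrafKE/+. Past the threshold were 1 that rose, Bhlhe40, and 1 that fell, Hlf, and 8 (27.6%, against 18.5% of all genes tested) had an unadjusted p under 0.05. Bhlhe40 encodes DEC1, an E-box repressor that also responds to neuronal and growth signals, with means of 2508 ± 178 (SD, n = 4) and 2062 ± 85.7 (SD, n = 5). It had values of 2399, 2317, 2630 and 2686 in Nestin;BrafKE/+ and 2080, 2049, 2139, 2121 and 1923 in Braf+/+, without overlap. Bhlhe40 rose by 0.28 on the log2 scale (SE 0.06, limma adjusted p = 0.0472), and the 3 series gave 0.20, 0.22 and 0.48. The call of Bhlhe40 held when mutant replicate 2 was left out (adjusted p = 0.0379) and was lost with any other library left out, with 0.122, 0.122 and 0.136 without replicates 1, 3 and 4 of Nestin;BrafKE/+ and 0.0765, 0.0788, 0.0605, 0.124 and 0.136 without Braf+/+ replicates 1 to 5. With all libraries kept it was 0.0569 with quantile normalisation, 0.110 with 4 name prefixes and 0.0595 with array quality weights.

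Hlf, the third PAR bZIP activator beside Dbp and Tef, fell from 3095 ± 239 (SD, n = 5) to 2403 ± 77.4 (SD, n = 4). Its values were 2378, 2421, 2314 and 2499 in Nestin;BrafKE/+ and 2749, 3204, 3367, 3182 and 2971 in Braf+/+, and every mutant library was below every control. Hlf had a log2 fold change of -0.36 (SE 0.07, limma adjusted p = 0.0210), and the 3 series gave -0.38, -0.43 and -0.25. Its adjusted p was 0.129 without mutant replicate 1, 0.0653 without mutant replicate 3 and 0.128 without control replicate 4, and under the threshold when any of the other 6 libraries was left out. Of the 3 PAR bZIP genes, Hlf and Tef thus lay lower in all 4 mutant libraries than in all 5 controls, and Dbp did not. The partners of BMAL1 did not pass the threshold, with a log2 fold change of -0.12 for Clock (adjusted p = 0.308) and -0.23 for Npas2 (adjusted p = 0.311), nor did the repressor Ciart at 0.15 (adjusted p = 0.592).

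The rise of Per2 and the lower Tef, Nr1d2 and Hlf stood beside other differences between the same libraries. The mean log2 level of 8 astrocyte markers, of which 3 passed the threshold (2.88% of all genes tested did), was higher by 0.26 in Nestin;BrafKE/+ (from 0.08 to 0.21, against -0.16 to -0.05 in Braf+/+), and that of 6 oligodendrocyte markers, of which 4 passed, by 0.42 (from 0.14 to 0.30, against -0.34 to -0.03). Of 7 hippocampal neuron markers 3 passed, against 2.88% of all genes tested, and 3 of the 7 were higher on average. Their mean log2 levels overlapped, from -0.02 to 0.12 in Nestin;BrafKE/+ and from -0.07 to 0.04 in Braf+/+. Levels of 5 microglial markers lay between 0.02 and 0.17 in Nestin;BrafKE/+ and between -0.12 and 0.00 in Braf+/+. Of these, 0 of 5 passed in limma and 2 had an unadjusted p under 0.05, against 18.5% of all genes tested. None of the defining markers of these lists was at 0, and the part of cell composition in the clock genes was not tested. Summed choroid plexus markers were highest in Braf+/+ replicates 2 (391030) and 4 (113110), the latter also the library highest in Dbp and Nr1d2. In Braf+/+ replicate 2 Dbp was 1251 and Nr1d2 2274, both within the range of the other controls. The part of choroid plexus in the clock genes was not tested. All 5 blood genes were higher on average in Nestin;BrafKE/+, by 0.39 on the log2 scale. Of these blood genes 0 of 5 passed in limma and 4 had an unadjusted p under 0.05, against 18.5% of all genes tested. Their summed values were 4321, 6184, 3489 and 4631 in Nestin;BrafKE/+ and from 3180 to 3579 in Braf+/+, with the highest in mutant replicate 2, also the library highest in Per2. The part of blood in the value of Per2 was not tested. Glucocorticoids, neuronal activity and temperature each move some clock genes, Per1 and Per2 among them. Of 12 glucocorticoid response genes 5 were higher and 7 lower, and 1 passed (against 2.88% of all genes), the metallothionein Mt2, which rose by 0.73 on the log2 scale (adjusted p = 0.00362, and 0.0593 without Nestin;BrafKE/+ replicate 1), while the log2 fold change was 0.05 for Fkbp5 (adjusted p = 0.832) and -0.27 for Sgk1 (adjusted p = 0.214). Plin4, named after its value was seen as the widest difference of this list, stood at a log2 fold change of -1.10 (adjusted p = 0.0815), with all 4 mutant libraries below all 5 controls. Pdk4, also named after its values were seen, was lower without overlap at -0.15 (adjusted p = 0.434). Lower without overlap were 2 of the 12 glucocorticoid response genes and 2 of the 12 immediate early genes, against 8.13% of all genes tested. Of 12 immediate early genes Arc rose by 0.77 on the log2 scale (adjusted p = 0.00707, but 0.0742 without Nestin;BrafKE/+ replicate 1 and 0.0525 without Braf+/+ replicate 4). Fos fell by 0.67 on the log2 scale (adjusted p = 0.0457), and stayed under the threshold without mutant replicate 2 (0.0472). With any other library left out it did not pass, with adjusted p-values from 0.0576 without Braf+/+ replicate 2 to 0.143 without Nestin;BrafKE/+ replicate 1. With all libraries kept, the adjusted p of Fos was 0.0512 with quantile normalisation, 0.0524 with no filter, 0.0695 with 4 name prefixes and 0.0632 with array quality weights. Of 8 temperature response genes 1 was higher and 7 were lower, with a median log2 fold change of -0.23. Of these 8 genes 0 passed in limma and 1 had an unadjusted p under 0.05, against 18.5% of all genes tested. The 1 that was higher was Cirbp, the cold-induced RNA-binding protein, at a log2 fold change of 0.11 (adjusted p = 0.483). The part of stress, activity and temperature in the clock genes was not tested.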

How the data were processed

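The authors sequenced stranded mRNA libraries of mouse hippocampus, trimmed reads with Trim Galore, aligned them with STAR to GRCm39 (Gencode release 28), quantified them with Salmon in nf-core, corrected for unnamed batches and scaled with DESeq2. The strand setting of the quantification is not given in the sources used here. The deposited table holds the resulting signal, in normalised counts, per gene and library. It holds batch-adjusted values and not reads, so no count model was fitted and depth is unknown.

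Genotypes were taken from the labels. Genes averaging 10 or more were fitted on log2(value + 1) with limma 3.58.1 in R 4.3.3 (eBayes with a mean-variance trend), with genotype and name series as terms, and p-values, two-sided, were adjusted by the Benjamini-Hochberg method over the 16196 genes tested, with a threshold of 0.05. The study's methods compare separate mice, and p-values measure the spread between them. Single values were tested by exact permutation over all assignments of genotype to the libraries and the 24 within series, and correlations by permutation with Python 3.11.15 and scipy 1.17.1. The fit was tested on simulated data. Alternatives were other scalings, pseudocounts (0.5 and 8), filters (none and a mean of 50), design terms, weights, a threshold of 0.1 and leaving out each library in turn.

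The members and lists were chosen with earlier results of these data known. Genes named are the 10 members, Clock, Npas2, Ciart, Fkbp5, Sgk1, Fos, Cirbp, every gene of the clock, glucocorticoid, immediate early and temperature lists past the threshold, and the 3 genes most like and the 3 most unlike Dbp. Plin4 and Pdk4 were named after their values were seen. Coordinates are from Gencode release 39 on GRCm39, promoters from RefSeq on GRCm38.p6.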

Additional observations from a re-analysis of the deposited data

How the results depend on the processing

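The number of clock members past the threshold was 1, and it was 0 with quantile normalisation, no filter, 4 name prefixes or array quality weights, 3 without the series term and 3 with the replicate block, and between 0 and 1 when 1 library was left out. The count of companion clock genes was 2, and it became 1 with quantile normalisation, 4 name prefixes or array quality weights, 7 without the series term, 6 with the replicate block and 4 at an adjusted p threshold of 0.1, with a range of 0 to 2 without 1 library. Over all genes 466 passed, against 2260 without the series term, 165 with 4 name prefixes, 1405 with the replicate block, 258 with array quality weights and 927 at the threshold of 0.1, and 42 to 369 without 1 library. The rise of Per2 kept its direction in every fit (log2 fold change from 0.31 to 0.41), with adjusted p-values of 0.0507 with quantile normalisation, 0.0520 without a filter, 0.129 with 4 name prefixes and 0.124 with array quality weights. Without the series term Tef and Nr1d2 passed (adjusted p = 0.0165 and 0.0322) and with the replicate block (0.0407 and 0.0175), and Hlf passed in every fit that kept all libraries. The cause of these changes was not tested, and fewer libraries leave fewer residual degrees of freedom.

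Replicate numbers did not pair the libraries. Libraries of the same number had correlations of -0.39, -0.08, 0.07 and 0.42 of their deviations from the group means, so the replicate block is given as an alternative only, and its values for the counts, Per2 (adjusted p = 0.0409), Tef and Nr1d2 carry no more weight than that.

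Sign turned for genes with small differences. The log2 fold change of Per1 was 0.0160 with 4 name prefixes and 0.0082 with array quality weights, and ran from -0.0786 to 0.0402 without 1 library. That of Dbp was -0.0092 with 4 name prefixes and ran from -0.0535 to 0.219, and that of Nr1d1 was -0.0113 with the replicate block and ran from -0.0533 to 0.0602. Without 1 library Cry2 ran from -0.0918 to 0.0095 and Fkbp5 from -0.0906 to 0.211. The arm difference was 0.0364 to 0.0794 without 1 library and -0.13 with member genes alone, and 0.0829 with Bhlhe40 added to the light-phase arm, an alternative chosen after the data had been seen. The differences in log2 ratio ran from 0.29 to 0.42 for Per2 over Per1, from -0.32 to -0.25 for Nr1d2 over Nr1d1, from -0.33 to -0.19 for Tef over Dbp and from -0.12 to -0.03 for Cry1 over Cry2. With 4 and 5 libraries and depth unknown, small differences of single genes were not detectable.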
